A study of Mus musculus with 12 samples.

Results

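Across 3 myeloid cell types, 9 genes for proteins of the extracellular matrix were followed: Dcn, Fn1, Spp1, Thbs1, Sparc, Vcan, Bgn, Ecm1 and Ccn3. They were chosen by name, with their mean levels in the 3 cell types known, out of 46072 Ensembl genes in the table. All 9 symbols matched 1 gene each. Because these means chose the genes, levels and fold changes between cell types are given for them as a description, without a test.

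RNA was sequenced from osteoclasts, bone marrow macrophages and immature dendritic cells grown from the marrow of C57/BL/6J mice aged 6 to 8 weeks, with 4 libraries of each, 12 in all. Marrow cells for osteoclasts and macrophages were first expanded for 5 days in 100 ng/ml of M-CSF, the growth factor of the macrophage lineage. Osteoclast cultures then received 30 ng/ml of M-CSF with 50 ng/ml of RANKL, the osteoclast differentiation factor, and macrophage cultures 30 ng/ml of M-CSF alone. Dendritic cell cultures received 20 ng/ml of GM-CSF. All 3 cultures were kept in these factors for 8 to 10 days, and the labels' protocols name no sorting step. Cells with a single nucleus were loosened from the osteoclast cultures before lysis, and the 3 cell types of each experiment came from the same mouse. The means summed over all genes to 2.42e+07 (osteoclasts), 2.50e+07 (macrophages) and 2.77e+07 (dendritic cells). The 8 osteoclast markers summed to 320144 in osteoclasts against 3892 in macrophages and 39707 in dendritic cells, and the 8 dendritic cell markers to 407765 in dendritic cells against 8605 and 5045 in osteoclasts and macrophages. Of the osteoclast markers, Atp6v0d2, Dcstamp and Ocstamp had higher means in dendritic cells than in osteoclasts (20465.5 against 17755.5 for Atp6v0d2), while Ctsk, Acp5, Mmp9, Oscar and Calcr were highest in osteoclasts. The 8 macrophage markers summed to 254471 in macrophages, 124843 in osteoclasts and 84819.8 in dendritic cells. Of these, Fcgr1 was highest in dendritic cells (2944 against 1812 in macrophages and 83.4 in osteoclasts), and the rest were highest in macrophages. In such bulk samples, fewer cells of a type and less RNA per cell cannot be told apart.

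The extracellular matrix is a network of secreted proteins that anchors cells and holds growth factors. Decorin (Dcn) and biglycan (Bgn) are small leucine-rich proteoglycans, and versican (Vcan) is a large proteoglycan that binds hyaluronan. Fibronectin (Fn1) is an adhesive glycoprotein bound by integrins. Osteopontin (Spp1), thrombospondin 1 (Thbs1), osteonectin (Sparc) and Ccn3 are matricellular proteins, which act on cells more than they build the scaffold, and Ecm1 is a secreted glycoprotein that binds other matrix components. Osteopontin is abundant in bone, where osteoclasts attach to it through the vitronectin receptor.

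Promoter windows are shown for 3 genes with high or strongly differing levels, so that the sequence just upstream can be read beside the values. The RefSeq promoter table used here (GRCm38.p6) matched 5 of the 9 genes, and no window is shown for Dcn, Fn1, Thbs1 and Ccn3. Each run covers 250 bases before the start site, 5′ to 3′ on the gene's strand, and capitals mark the motif matches listed after it.
Spp1 (chr5:104434861-104435110, plus strand): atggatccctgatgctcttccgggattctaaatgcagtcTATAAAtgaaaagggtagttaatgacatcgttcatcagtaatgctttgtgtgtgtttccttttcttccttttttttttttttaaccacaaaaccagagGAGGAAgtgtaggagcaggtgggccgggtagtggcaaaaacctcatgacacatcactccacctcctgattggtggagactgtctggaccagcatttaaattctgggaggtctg
Ecm1 (chr3:95739570-95739819, minus strand): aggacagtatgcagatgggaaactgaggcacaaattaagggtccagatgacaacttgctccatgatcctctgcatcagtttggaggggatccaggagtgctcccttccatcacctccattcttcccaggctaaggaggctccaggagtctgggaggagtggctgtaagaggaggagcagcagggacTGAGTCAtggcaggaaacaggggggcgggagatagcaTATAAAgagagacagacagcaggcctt
Vcan (chr13:89742513-89742762, minus strand): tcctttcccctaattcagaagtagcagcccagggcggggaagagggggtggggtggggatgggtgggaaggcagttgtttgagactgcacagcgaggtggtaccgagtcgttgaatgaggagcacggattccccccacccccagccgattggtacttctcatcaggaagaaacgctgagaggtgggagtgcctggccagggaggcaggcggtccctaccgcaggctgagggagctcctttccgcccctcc

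On both strands, 6 motifs were searched: AP-1 (TGANTCA), CRE (TGACGTCA), an E-box (CACGTG), a PU.1 core (GAGGAA), an NFAT core (GGAAAA) and a TATA box (TATAAA). The Ecm1 window held TGAGTCA from base -64 to -58 and TATAAA from base -27 to -22, counted from the start site. The Spp1 window shown held GAGGAA from base -113 to -108 and TATAAA from base -211 to -206. A second Spp1 start in the table (window chr5:104435942-104436191, not shown) had GGAAAA from base -202 to -197 of that start. No searched motif lay in the Vcan window. Of 32851 windows of the same length, 6.75% held the AP-1 motif, 1.55% the CRE, 6.02% the E-box, 23.3% the PU.1 core, 20.4% the NFAT core and 12.4% the TATA box. These matches describe the letters and were not tested as binding sites.

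Spp1 was by far the most abundant of the 9 genes in every cell type. Its mean was 75290.2 (osteoclasts), 112569 (macrophages) and 106629 (dendritic cells), per the authors' deposited table. That is 0.311% of the summed means in osteoclasts and 0.385% in dendritic cells. Levels are compared between genes as CPM per kb of exon, where CPM is the mean scaled to the summed means of its cell type. By that measure Spp1 ranked 7 among all genes in macrophages and 15 in both osteoclasts and dendritic cells. Spp1 supplied 90.7% of the summed level of the 9 genes in osteoclasts and 96.6% in macrophages, but 55.0% in dendritic cells. Together the 9 genes took 0.342%, 0.466% and 0.699% of all normalised counts in osteoclasts, macrophages and dendritic cells. Means as high as those of Spp1 could not be split into libraries, so its spread is known only through the standard error (SE) implied by the authors' p-value, given after ± in the fold changes below. Its log2 fold change was −0.57 ± 0.24 for osteoclasts against macrophages and −0.08 ± 0.24 for dendritic cells against macrophages, per the authors' deposited table. The top pair in the order, macrophages and dendritic cells, thus lay within 1 SE of each other. Spp1 (chromosome 5, 104435118 to 104441050 in GRCm38) overlaps a transcript on its own strand, Gm42793, whose mean was at most 113, per the authors' deposited table.

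**Figure D1:**
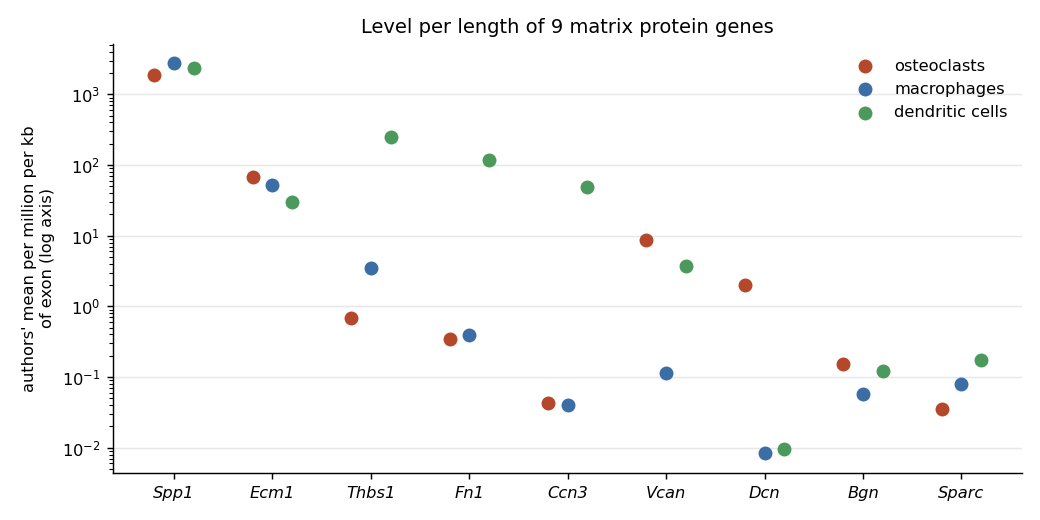
Mean level of the 9 genes in each cell type, as authors' mean in CPM per kb of exon on a log axis; each point is 1 cell type. Spp1 lies above all others in the 3 cell types, while Thbs1, Fn1 and Ccn3 have 1 high point, in dendritic cells, and Dcn has 1 high point, in osteoclasts.

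Ecm1 (chromosome 3, 95734147 to 95739569 in GRCm38) was the next gene of the 9 by level in osteoclasts and macrophages. The means were 4102 (osteoclasts), 3244 (macrophages) and 2095 (dendritic cells), per the authors' deposited table. Its log2 fold change for osteoclasts against dendritic cells was 0.96 ± 0.18, per the authors' deposited table. It was lower in dendritic cells than in macrophages (−0.63 ± 0.18), per the authors' deposited table. Osteoclasts and macrophages were neighbours in its order, with a log2 fold change of 0.34 ± 0.18, per the authors' deposited table. The Ecm1 level was 67.1 CPM per kb of exon in osteoclasts, above every one of the 9 genes there except Spp1 at 1885.

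Dcn was found almost solely in osteoclasts. Whole reads per library could be recovered from the authors' means where a mean was under 1000, and libraries are lettered a to d within each cell type, with no link between equal letters of different cell types. The osteoclast libraries held 137, 322, 395 and 275 normalised reads of Dcn, 283 ± 109 (SD, n = 4). The macrophage libraries held 1.97, 0, 0.974 and 1.92, and the dendritic cell libraries 1.03, 1.02, 4.07 and 0. All 4 osteoclast libraries lay far above all 8 others, and the lowest of them was library a.

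In the authors' deposited table the log2 fold change of Dcn was 7.27 ± 0.59 against macrophages and 7.03 ± 0.58 against dendritic cells. By ratio of the means it was 233-fold and 185-fold, per the authors' deposited table. The macrophage value rests on 5 reads and the dendritic value on 6, of which 4 came from library c. Without that library the log2 ratio of means plus 1 for osteoclasts against dendritic cells went from 6.81 to 7.40. The osteoclast level of Dcn (chromosome 10, 97479609 to 97518143 in GRCm38) was 2.00 CPM per kb and ranked 9382 among all genes.

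Decorin is a product of fibroblasts and of cells of the osteoblast lineage, so the markers of those cells are given beside it. Of 17 markers of fibroblasts and the osteoblast lineage, 4 were at 0 in osteoclasts: Thy1, Alpl, Bglap and Ibsp. The summed level of the 17 ran from 383 to 677 normalised reads over the osteoclast libraries, from 242 to 751 over the macrophage libraries, and from 485 to 2235 over the dendritic cell libraries with Runx2 left out there. Runx2 was the highest of the 17 in each cell type, with 378 in osteoclasts. The fibrillar collagen genes Col1a1 and Col1a2, which such cells express strongly, held at most 2.02 and 5.04 normalised reads in any osteoclast library. In osteoclast library c, which had the most Dcn, Col1a1, Col1a2 and Col3a1 were all at 0, while Runx2 (545 against 247, 248 and 470 in a, b and d) and Pdgfra (10.9 against at most 3.02) were highest there. The sum of the 17 was 383, 386, 677 and 590 in libraries a to d, and Runx2 supplied most of it. Libraries a and b were near equal in that sum, but held 137 and 322 normalised reads of Dcn. Acta2, also of the 17, was lowest in library c (21.9) and highest in a (41.3), while Tagln ran from 70.5 in a to 80.5 in c. Runx2 had a mean of 320 in macrophages, where the mean of Dcn was 1.21, per the authors' deposited table. Library a also had the most Pf4, a platelet chemokine gene (1231 normalised reads against 286 to 399), but the least Treml1 (36.3 against 57.6 to 59.6), another platelet marker. The part of such cells in the Dcn values was not tested.

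Vcan was high in osteoclasts and dendritic cells and low in macrophages. The means were 3091 in osteoclasts and 1488 in dendritic cells, per the authors' deposited table. The macrophage libraries held 43.2, 44.8, 48.7 and 25.9 normalised reads, 40.7 ± 10.1 (SD, n = 4), so all 4 were low. The log2 fold change of Vcan against macrophages was 6.04 ± 0.38 for osteoclasts and 5.02 ± 0.38 for dendritic cells, and osteoclasts exceeded dendritic cells by 1.03 ± 0.36, per the authors' deposited table. The transcript Gm4117 lies on the opposite strand over the start of Vcan (chromosome 13, 89655312 to 89742509 in GRCm38). Its mean was 200 (osteoclasts), 274 (macrophages) and 254 (dendritic cells), per the authors' deposited table, without the macrophage drop of Vcan. The library kit keeps the strand, per the labels' protocols, but whether the counting used it was not stated in those protocols.

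Bgn (chromosome X, 73483602 to 73495933 in GRCm38), of the same proteoglycan family as Dcn, was scarce in every culture. Osteoclast libraries held 24.2, 46.1, 11.9 and 8.94 normalised reads, macrophage libraries 5.90, 1.95, 15.6 and 11.5, and dendritic cell libraries 19.5, 3.06, 57.0 and 2.03. The ranges of the 3 cell types overlapped. The means ± SD (n = 4) were 22.8 ± 16.9, 8.73 ± 6.02 and 20.4 ± 25.7, so none of the neighbours in its order lay apart beyond the spread. The log2 fold change of Bgn was 1.18 ± 0.75 for osteoclasts against macrophages and 0.14 ± 0.75 for osteoclasts against dendritic cells, per the authors' deposited table.

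**Figure D2:**
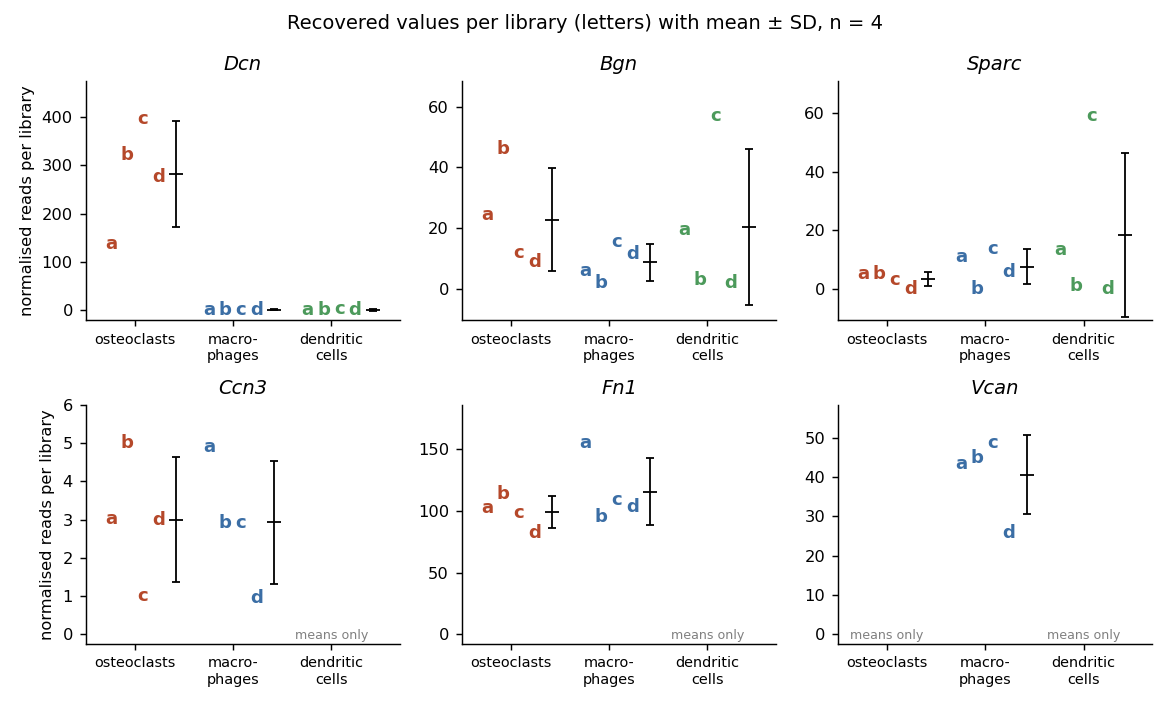
Normalised reads recovered for each library of 6 matrix genes, drawn as the letter of the library, by cell type; the bar beside each group is the mean ± SD over 4 libraries, and "means only" marks groups that could not be recovered. The 4 osteoclast values of Dcn (137 to 395) stand above all others, and dendritic cell library c is the highest for both Bgn (57.0) and Sparc (59.0).

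Sparc (chromosome 11, 55394500 to 55423183 in GRCm38), whose protein is abundant in bone matrix, was the lowest of the 9 genes by mean in dendritic cells after Dcn. Osteoclast libraries held 5.04, 5.01, 2.98 and 0 normalised reads and macrophage libraries 10.8, 0, 13.6 and 5.75. Dendritic cell libraries held 13.3, 1.02, 59.0 and 0, a range that covers both other cell types. Library c supplied 58 of the 72 dendritic reads, and without it the dendritic mean fell from 18.3 to 4.78, under the macrophage mean of 7.55. The log2 fold change of Sparc was −0.84 ± 0.96 for osteoclasts against macrophages and 0.97 ± 0.95 for dendritic cells against macrophages, per the authors' deposited table.

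Of the 17 markers, 3 fibrillar collagen genes, picked after their values were seen, had the same highest dendritic cell library as Sparc and Bgn. Col1a2 held 13.3, 0, 38.7 and 0 normalised reads in libraries a to d, and Col1a1 held 5.13, 3.06, 22.4 and 0. Col3a1 held 3.08, 0, 7.13 and 1.02. Library c was the highest and a the next for all 3 collagens, as for Sparc and Bgn. Cxcl12, Pdgfra and Tagln were also highest in library c, but Pdgfrb (35.7 against 25.4 in c), Acta2 (143 against 105) and Lepr were highest in b, and Postn (34.9 against 18.3 in c) and Thy1 in a. Dcn also had its most dendritic reads, 4 of 6, in library c. Lum, Bglap and Ibsp of the 17 markers were at 0 in dendritic cells. The part of such cells in the Sparc and Bgn values was not tested.

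**Figure D3:**
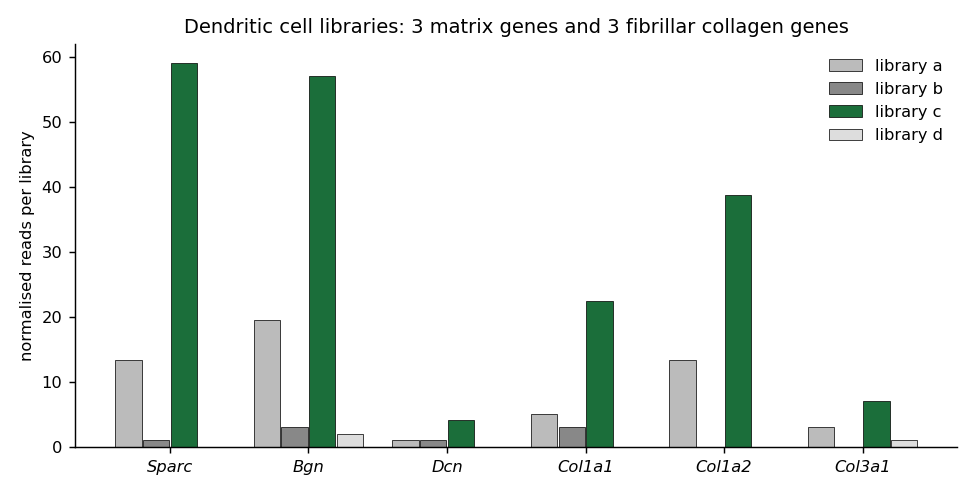
Normalised reads of Sparc, Bgn, Dcn and 3 fibrillar collagen genes in each of the 4 dendritic cell libraries (bars from 0, no error since each bar is 1 library). Library c is the highest for all 6 genes, from 4.07 for Dcn to 59.0 for Sparc.

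Fn1, Thbs1 and Ccn3 had their highest levels in dendritic cells. Fn1 had a mean of 37876.1 in dendritic cells, per the authors' deposited table. The start of Fn1 (chromosome 1, 71585520 to 71653200 in GRCm38) overlaps Apol7d on the opposite strand, whose mean was 157 in dendritic cells, per the authors' deposited table. Macrophage libraries held 155, 95.5, 109 and 104 normalised reads of Fn1 and osteoclast libraries 103, 114, 98.4 and 82.4. The ranges of macrophages and osteoclasts overlapped, and their means were 116 ± 26.9 and 99.4 ± 13.1 (SD, n = 4). By ratio of the means Fn1 was 327-fold higher in dendritic cells than in macrophages and 381-fold higher than in osteoclasts, per the authors' deposited table. The deposited log2 fold change was smaller, at 5.94 ± 0.99 against macrophages, where the log2 ratio of the means was 8.35, per the authors' deposited table. The implied SE of Fn1 was as wide for osteoclasts against macrophages (−0.11 ± 0.99, per the authors' deposited table), whose 8 libraries had a coefficient of variation of 13.2% and 23.2%. The dendritic cell libraries of Fn1 could not be recovered, so their spread was not examined.

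Thbs1 had the highest dendritic level of the 3, with a mean of 41867.5, per the authors' deposited table. Osteoclast libraries held 168, 76.1, 103 and 61.6 normalised reads, 102 ± 47.3 (SD, n = 4). The macrophage mean was 535, per the authors' deposited table, and 2 sets of whole reads fit it. One set places 1323 normalised reads in library a with 146 to 507 in the others, and the other places 1644 in library d with 133 to 205 in the others. Under both sets a single macrophage library held most of the reads, and the mean of the other 3 was 272 or 165. Thbs1 had a fold change but no p-value in all 3 comparisons. DESeq2 leaves the p-value blank where it marks a count as an outlier. Its log2 fold change was 5.53 for dendritic cells against macrophages and −7.50 for osteoclasts against dendritic cells, per the authors' deposited table, with no standard error. Gm29233, a non-coding transcript on the opposite strand inside Thbs1 (chromosome 2, 118111876 to 118127133 in GRCm38), had means of 1.00, 6.74 and 353 in osteoclasts, macrophages and dendritic cells, per the authors' deposited table.

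Ccn3, a growth-regulating member of the CCN family, had the largest ratio of the 9 genes. The dendritic cell mean was 3869, per the authors' deposited table. Osteoclast libraries held 3.02, 5.01, 0.994 and 2.98 normalised reads and macrophage libraries 4.91, 2.92, 2.92 and 0.959. Each of those groups rests on 12 reads and their ranges overlapped, with means of 3.00 ± 1.64 and 2.93 ± 1.61 (SD, n = 4). The log2 fold change of dendritic cells against macrophages was 10.03 ± 0.42 and that of osteoclasts against dendritic cells −9.99 ± 0.42, per the authors' deposited table. Ccn3 lies on chromosome 15, 54745702 to 54754039 in GRCm38, with no annotated gene overlapping it.

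Markers of other marrow cells are given beside these 3 genes. The 8 neutrophil markers summed to 14582 in dendritic cells against 77.6 in osteoclasts and 92.0 in macrophages, with none at 0 in dendritic cells. The 6 eosinophil markers summed to 8433 against 398 and 181, and the 8 mast cell and basophil markers to 782 against 12.7 and 8.27, with Mcpt4 at 0 in dendritic cells. Of the eosinophil markers, Ccr3 was lowest in dendritic cells (48.0 against 237 in osteoclasts and 126 in macrophages), and the rest were highest there. The 8 megakaryocyte and platelet markers summed to 3427 in dendritic cells and 3504 in macrophages, with Gp9 at 0 in both. Pf4 was the highest of them, at 2830 in dendritic cells and 3326 in macrophages, whereas Ppbp (409 against 8.50) and Itga2b (111 against 7.54) were higher in dendritic cells. The 8 endothelial markers summed to 3391 in dendritic cells, where Flt1 made up 3252, against 489 in osteoclasts and 958 in macrophages. The higher dendritic sum thus rests on Flt1. The other 7 summed to 76.3 to 216 over the dendritic cell libraries, less than the mean of Kdr alone in osteoclasts or in macrophages. Kdr was lowest in dendritic cells, whereas Cdh5, Tek, Emcn and Ptprb were highest there. Egfl7 was highest in macrophages and Esam in osteoclasts. The part of such other marrow cells in the dendritic levels of Fn1, Thbs1 and Ccn3 was not tested.

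Counting the 9 genes by the authors' calls (adjusted p under 0.05) gives the background for these descriptions, and nothing is read from the counts because the means chose the genes. For osteoclasts against macrophages 2 were higher (Dcn, Vcan) and 0 lower, per the authors' deposited table, where 29.3% of 17822 tested genes were called, 14.5% higher and 14.7% lower. For osteoclasts against dendritic cells 3 were higher (Dcn, Vcan, Ecm1) and 2 lower (Fn1, Ccn3), per the authors' deposited table, where 36.9% of 21217 tested genes were called, 16.8% higher and 20.1% lower. For dendritic cells against macrophages 3 were higher (Vcan, Fn1, Ccn3) and 1 lower (Ecm1), per the authors' deposited table, where 36.7% of 20730 tested genes were called, 20.3% higher and 16.4% lower. Thbs1 had no call, so each count is out of 8. The 3 comparisons share their cell types and are not independent.

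**Figure D4:**
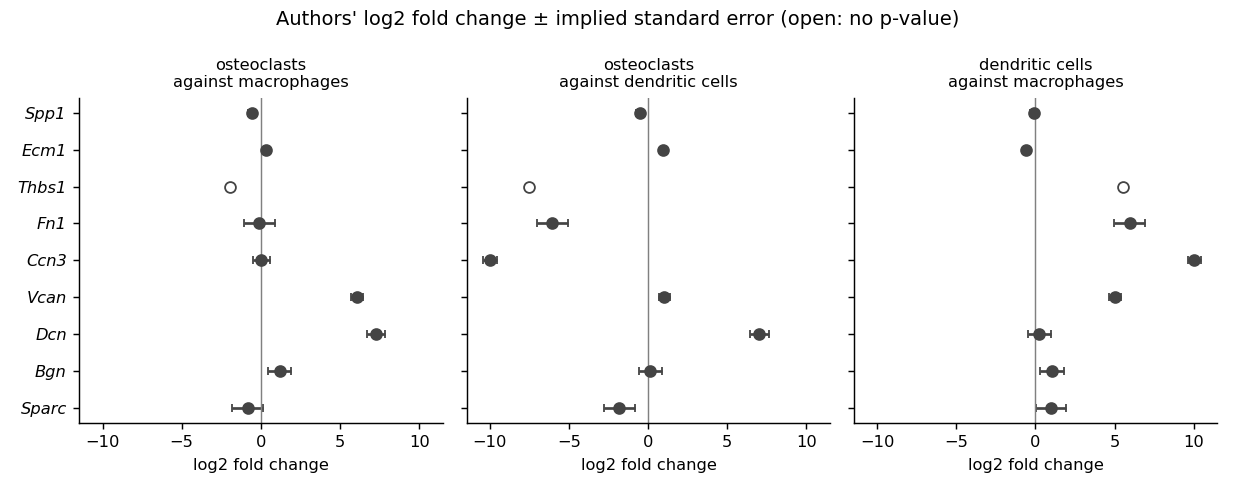
Authors' log2 fold change of the 9 genes (points) with the implied standard error (bars) in the 3 comparisons; open circles have no p-value and so no bar. Dcn and Vcan lie above 6 for osteoclasts against macrophages, and Ccn3 lies near 10 for dendritic cells against macrophages.

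Genes with the most similar profile over the 3 cell types were sought among 9312 genes, by the distance between centred log2 values (CPM plus 1). Serpind1, a plasma protease inhibitor, was nearest to Dcn, at a distance of 0.17. Serpind1 had means of 247 (osteoclasts), 0.727 (macrophages) and 2.81 (dendritic cells), per the authors' deposited table. Mgll and Il1a were nearest to Ccn3 (0.11 and 0.14), Asgr2 and Ear2 to Fn1 (0.12 and 0.17), and Ccr2 and AA467197 to Thbs1 (0.31 and 0.55). Vcan had no close match: the nearest genes were Sema7a and, at a distance of 1.22, Mycl. The nearest genes were Rbl2 for Spp1, Golim4 and Lig1 for Ecm1, Ndufc1 and Pik3cb for Bgn, and Etv3 and Cnnm4 for Sparc. With 3 cell types, likeness describes only how 3 means differ on this scale. The 1 added to CPM shrinks differences among values under 1 CPM, as all those of Sparc (0.134 to 0.662) and Bgn (0.349 to 0.940) were. The lowest values of Dcn and Ccn3 were under 1 CPM too. The nearest genes of these members therefore need not share the ratios of their means.

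The wider matrix program was described from 8 lists holding 200 genes other than the 9. Calls are the authors', at adjusted p under 0.05 over the whole table. For osteoclasts against macrophages 25 of 138 tested genes were higher and 22 lower (34.1% called), beside 29.3% of all tested genes, with a median log2 fold change of −0.17 beside −0.03. For osteoclasts against dendritic cells 41 of 161 were higher and 44 lower (52.8%), beside 36.9% of all tested genes, with a median of −0.43 beside −0.05. For dendritic cells against macrophages 42 of 158 were higher and 35 lower (48.7%), beside 36.7% of all tested genes, with a median of 0.32 beside 0.05. By direction, all tested genes gave 14.5% higher and 14.7% lower, 16.8% and 20.1%, and 20.3% and 16.4% in these 3 comparisons, and the counts of single lists below stand against those shares.

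Of 9 tested proteoglycans 1 was higher in osteoclasts than in macrophages and 0 lower. It was Hspg2 (perlecan, of basement membranes), with means of 85.3 against 0.976 and a log2 fold change of 5.89 ± 0.62 (adjusted p = 3.00e-19), per the authors' deposited table. Hspg2 was likewise higher in osteoclasts than in dendritic cells (5.26 ± 0.56, adjusted p = 7.58e-20, per the authors' deposited table). Srgn, the proteoglycan of secretory granules, had the highest level of the list and was higher in dendritic cells than in macrophages by 2.75 ± 0.19 (adjusted p = 1.15e-43, per the authors' deposited table).

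Of the other matricellular genes 9 of 19 were higher and 1 lower in dendritic cells than in macrophages (all tested genes: 20.3% and 16.4%), and 7 of 20 were lower and 2 higher in osteoclasts than in dendritic cells. Fst (follistatin, an activin antagonist) had means of 560 in dendritic cells and 0.995 in osteoclasts (log2 fold change of osteoclasts against dendritic cells −8.41 ± 0.63, adjusted p = 1.82e-39), per the authors' deposited table. Tgfbi, an adhesion protein induced by TGF-β, was higher in osteoclasts than in macrophages by 1.07 ± 0.26 (adjusted p = 0.000252), with means of 19149 and 9033, per the authors' deposited table. Its dendritic cell mean was 16016, not called against osteoclasts (adjusted p = 0.484), per the authors' deposited table. Of 9 bone matrix phosphoproteins and their modifiers only 2 were tested in osteoclasts against macrophages. Phospho1, a phosphatase of mineralisation, was higher by 2.69 ± 0.34 (adjusted p = 1.16e-13), and Fam20c, the kinase that phosphorylates osteopontin, had means of 6504 and 7254 (adjusted p = 0.736), per the authors' deposited table. Phospho1 was not called for osteoclasts against dendritic cells (means of 298 and 180, adjusted p = 0.0745), per the authors' deposited table. It was higher in dendritic cells than in macrophages by 1.97 ± 0.34 (adjusted p = 5.33e-08), per the authors' deposited table.

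Of 14 basement membrane genes 6 were higher and 5 lower in osteoclasts than in dendritic cells. Lama3 was lower in osteoclasts than in macrophages by a log2 fold change of −3.87 ± 0.31 (adjusted p = 3.14e-32), per the authors' deposited table. Of 29 collagens 7 were higher and 7 lower in osteoclasts than in dendritic cells. Col18a1 had means of 4334 (osteoclasts), 2069 (macrophages) and 19.4 (dendritic cells), and Col4a5 had 3053, 828 and 32.4, per the authors' deposited table. Col5a1 was lower in osteoclasts than in dendritic cells (−6.23 ± 0.60, adjusted p = 6.86e-24, per the authors' deposited table).

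Adhesive and elastic glycoproteins were split, with 4 of 17 higher and 4 lower in osteoclasts than in macrophages. Ltbp2, a relative of the latent TGF-β binding proteins, had means of 1458 (osteoclasts), 499.7 (macrophages) and 35.7 (dendritic cells), per the authors' deposited table. Mfge8, which bridges dying cells to phagocytes, was higher in dendritic cells than in macrophages by 2.41 ± 0.39 (adjusted p = 8.71e-09), per the authors' deposited table.

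Among matrix receptors 15 of 27 were higher and 5 lower in osteoclasts than in dendritic cells (all tested genes: 16.8% and 20.1%). Against macrophages 5 of 26 were higher and 7 lower in osteoclasts (all tested genes: 14.5% and 14.7%). Itgb3, which with the alpha v chain forms the osteopontin-binding vitronectin receptor, had means of 6965 in osteoclasts and 351 in macrophages (4.23 ± 0.30 on the log2 scale, adjusted p = 2.01e-41), per the authors' deposited table. Cd36, a receptor for thrombospondin 1, was highest in dendritic cells, with means of 7695, 22201 and 51965 in osteoclasts, macrophages and dendritic cells, per the authors' deposited table. Itga9, whose integrin binds osteopontin, was lower in osteoclasts than in macrophages (−2.09 ± 0.22, adjusted p = 1.19e-18) and higher than in dendritic cells (5.93 ± 0.40, adjusted p = 4.44e-47), per the authors' deposited table.

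Enzymes that modify matrix were higher in dendritic cells than in macrophages in 12 of 35 cases and lower in 6 (all tested genes: 20.3% and 16.4%). Chst11, which sulfates the chondroitin chains that versican carries, was higher in dendritic cells than in macrophages by 3.30 ± 0.35 (adjusted p = 1.02e-19), per the authors' deposited table. Xylt2, which starts such chains, was lower in dendritic cells than in macrophages, with means of 829 and 3685 (adjusted p = 1.05e-20, per the authors' deposited table). Lox, a collagen cross-linking oxidase, was higher in osteoclasts than in macrophages by 4.09 ± 0.44 (adjusted p = 1.68e-18), per the authors' deposited table.

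**Figure D5:**
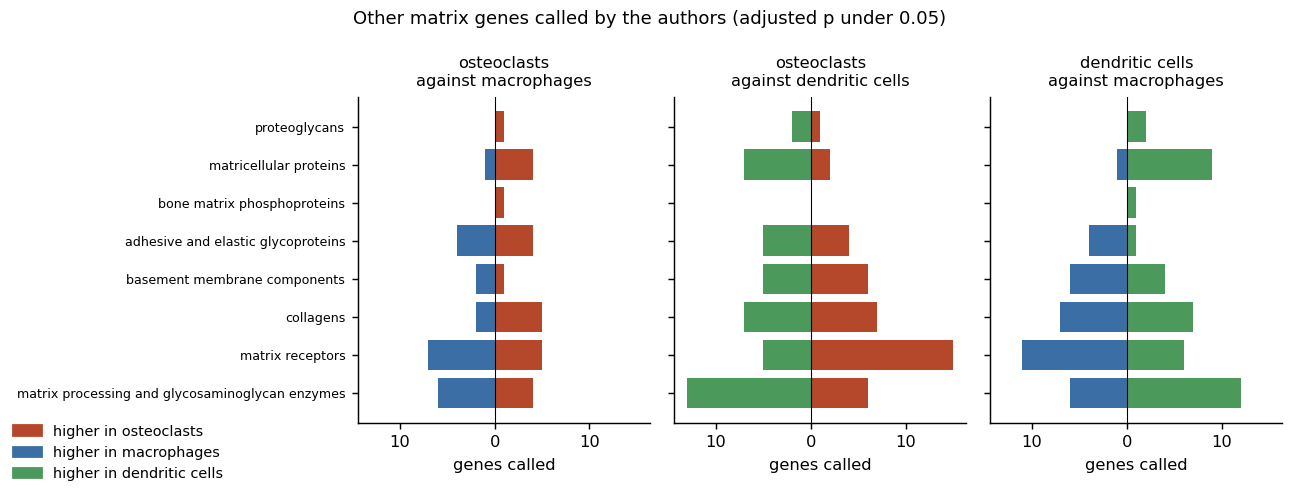
Number of genes in each of 8 lists that the authors called (adjusted p under 0.05) in the 3 comparisons; bars to the right are higher in the first-named cell type, bars to the left higher in the second, coloured by the cell type with the higher level. Receptors have 15 genes higher in osteoclasts than in dendritic cells, and matrix enzymes 13 genes higher in dendritic cells than in osteoclasts.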

How the data were processed

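The deposited table holds 46072 Ensembl genes. Its signal values are means over 4 libraries of counts divided by a size factor; the deposited header calls them means, and the division was inferred from the values. Its log2 fold changes, p-values and adjusted p-values are the authors' own, as deposited. The submitters' processing notes name bcl2fastq, Bowtie2, TopHat2, Cufflinks 2.1.1, DESeq2 2.13 and GRCm38; roles, annotation and strand setting were not given in any source used here. Coordinates and exon lengths are from GENCODE M21 (GRCm38).

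Whole reads were recovered for means under 1000 by finding the 4 whole numbers that, divided by the libraries' size factors (0.975 to 1.04), give the deposited mean. Of 1455 genes drawn, 1452 had 1 solution and 3 had several. Those 3 were macrophage means of 500 to 1000, where 22 of 25 drawn had 1 solution. On simulated data 363 of 363 were recovered, but the simulation used the same fitted size factors, so it could not show an error in them. Letters a to d order size factors within a cell type; which GEO sample each is was not known. Implied SE is the fold change over the normal quantile of its p (taken as a two-sided Wald test, an inference). For Spp1 and Fn1 it was near equal in all 3 comparisons, so it need not measure the spread of the pair compared. Python 3.11.15 with scipy 1.17.1 was used. The genes and lists were chosen with earlier results of these data known. Named genes are the 9, up to 2 per list and direction with the smallest p, the highest of each list, and the 2 nearest profiles; the text gives a part of them, and some are not reported here. The collagens set beside Sparc and Dcn were picked from a marker list after their values were seen. Nothing in the sources says the libraries are technical repeats; the labels give 4 separate marrow extractions.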

Additional observations from a re-analysis of the deposited data

How the results depend on the processing

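No paired analysis was possible because the table gives means per cell type and the recovered libraries carry no replicate numbers. Calls were recounted with no filter on low genes, without genes under 1 CPM, with summed means made equal, with upper-quartile scaling and with a 2-fold minimum. All counts of called genes, for the 9 and for the other matrix genes, stayed within 1.5 times the reported ones. The 9 gave 2 to 3 calls for osteoclasts against macrophages, the additional call being Spp1, called lower under upper-quartile scaling and without genes under 1 CPM. The shift of all fold changes by scaling was at most 0.19 on the log2 scale. Without dendritic cell library c, dendritic cells against macrophages went from 1.18 to −0.56 for Sparc and from 1.14 to −0.08 for Bgn (log2 ratio of means plus 1), and from 0.19 to −0.40 for Dcn. For osteoclasts against dendritic cells the ratio of Bgn ran from −0.42 to 1.37 and that of Sparc from −2.58 to −0.44. Leaving out 1 library moved Dcn between 6.76 and 7.23 in osteoclasts against macrophages and between 6.54 and 7.40 in osteoclasts against dendritic cells, the highest without dendritic library c. Leaving out a library could not be done for the authors' calls, nor for groups with means of 1000 or more or for Thbs1 in macrophages. With the 2-fold minimum Ecm1 lost its calls in both comparisons with dendritic cells, leaving 4 and 3 calls among the 9. The size of the fold of Fn1 depends on the estimate: −6.05 as deposited and −8.56 as a ratio of means plus 1, for osteoclasts against dendritic cells.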

Other observations

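Lepr and Thy1, of the fibroblast and osteoblast lineage list, did not follow the fibrillar collagens among the dendritic cell libraries. Lepr, the leptin receptor, held 741, 1846, 797 and 173 normalised reads in libraries a to d, highest in b. Thy1 held 66.7, 60.2, 62.1 and 35.6, and was at 0 in all 4 osteoclast libraries. In the macrophages Runx2 held 147, 637, 96.4 and 401 normalised reads, with library b the highest. That library, singled out after its values were seen, also had the most normalised reads of the recovered dendritic cell markers (1265 against 217 to 758) and of the endothelial markers (1998 against 423 to 730). The dendritic sum covers 6 of the 8 markers, of which H2-Ab1 had the highest mean (488). Cd74 (3163) and Itgax (1264), the markers with the highest macrophage means, could not be recovered. Macrophage library b had the fewest normalised reads of Bgn (1.95) and none of Sparc or Dcn.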
